A study of Homo sapiens with 6 samples.

Results

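The 40 genes described here encode the machinery that licenses and fires replication origins, copies DNA, supplies deoxynucleotides and packs new DNA into chromatin, together with the E2F factors and cyclin E that switch these genes on at the entry into S phase. They were taken by gene name from a table of 58735 genes, and all 40 were found and passed the filter on low counts, among 13768 genes tested. Expression was measured by bulk sequencing of polyadenylated RNA from OE33, an established human esophageal adenocarcinoma line. ABS cells were exposed for 20 min to 200 µM acidified bile salts (ABS) in medium without supplements at pH 4.0, washed, and harvested after 6 h of recovery in complete medium. Control (Ctrl) cells were untreated. Each group had 3 biological replicates of the same line. No group given acid or bile salts alone, or the medium change alone, was analysed here, so these parts of the exposure cannot be told apart.

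In a cycling cell, E2F factors held back by the retinoblastoma protein are freed by cyclin-dependent kinases and turn on genes for replication. In G1 the origin recognition complex, CDC6 and CDT1 load the MCM2-7 helicase onto origins, and in S phase CDC45 and the GINS complex turn it into an active helicase. Polymerases alpha, delta and epsilon then copy the DNA, held on it by the PCNA clamp, which the RFC complex loads. Much of this transcription is periodic, so in bulk RNA fewer cells in S phase and less RNA per cell cannot be told apart.

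Libraries held between 22145676 and 25235686 counts, at which 3 counts, the limit that a count of 0 allows, equal between 0.118 and 0.137 CPM, counts scaled to a common library size. The lowest count of any of the 40 genes in any library was 137, well above that limit. The replicate 3 libraries of ABS and Ctrl were set off from the rest. In a chi-square comparison of raw counts, the value divided by its degrees of freedom was 7.1 for ABS 3 with Ctrl 3, 4.91 for ABS 1 with 2 and 4.96 for Ctrl 1 with 2. Replicate 3 compared with the other libraries of its own group gave 14.6 or more. ABS 1 and 2 compared with Ctrl 1 and 2 gave values between 17 and 19.7. Differences for replicates 1 and 2, and for the pair of replicate 3 libraries, are therefore given beside the pooled values for the list and for some of the genes. Epithelial markers summed to between 19200 and 20400 CPM in ABS libraries and between 18300 and 21000 CPM in Ctrl libraries. The summed markers of fibroblasts lay between 2.59 and 4.11 CPM in ABS libraries and between 2.82 and 3.14 CPM in Ctrl libraries, with *COL1A2* and *DCN* at 0 counts. Immune markers summed to between 1.84 and 3.02 CPM in ABS libraries and between 1.2 and 1.62 CPM in Ctrl libraries, with *PTPRC* and *CD3E* at 0 counts. Endothelial markers summed to at most 0.275 CPM in ABS libraries and 0.0455 CPM in Ctrl libraries.

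After ABS, the estimated changes of the replication and S phase genes were small, from 0.18 down to −0.30 on the log2 scale. None of the 40 passed an adjusted p of 0.05 in edgeR's quasi-likelihood test, in either direction, and DESeq2 called 0 as well. Of all tested genes, 0.37% were called higher and 0.0654% lower. At an unadjusted p under 0.05, 7 of the 40 (17.5%) had lower values after ABS and 0 higher ones, against 4.14% and 5.61% of all tested genes. These 7 were *CDT1*, *GINS1*, *E2F1*, *E2F2*, *RFC4*, *TK1* and *SLBP*.

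Most of the 40 log2 fold changes, ABS over Ctrl, were small and negative. They ran from −0.30 to 0.18 with a median of −0.08, and 34 of 40 (85%) were below 0, against a median of −0.0037 and 51% below 0 among all tested genes. The quartiles of the list were −0.15 and −0.0224, and those of all tested genes −0.117 and 0.115. The values of all 3 ABS libraries lay below all 3 Ctrl values in 12 of the 40 (30%), against 6.95% of all tested genes, and above them in 1, *GINS3*, against 7.57%. These shares describe the list and were not tested. No gene differed by more than 20% downward. The 95% interval of the fold change lay inside a 1.5-fold change in either direction for 39 of the 40, the exception being *E2F2*, with a lower bound of 0.66-fold. The interval covered 0 on the log2 scale for 33 of the 40.

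**Figure D1:**
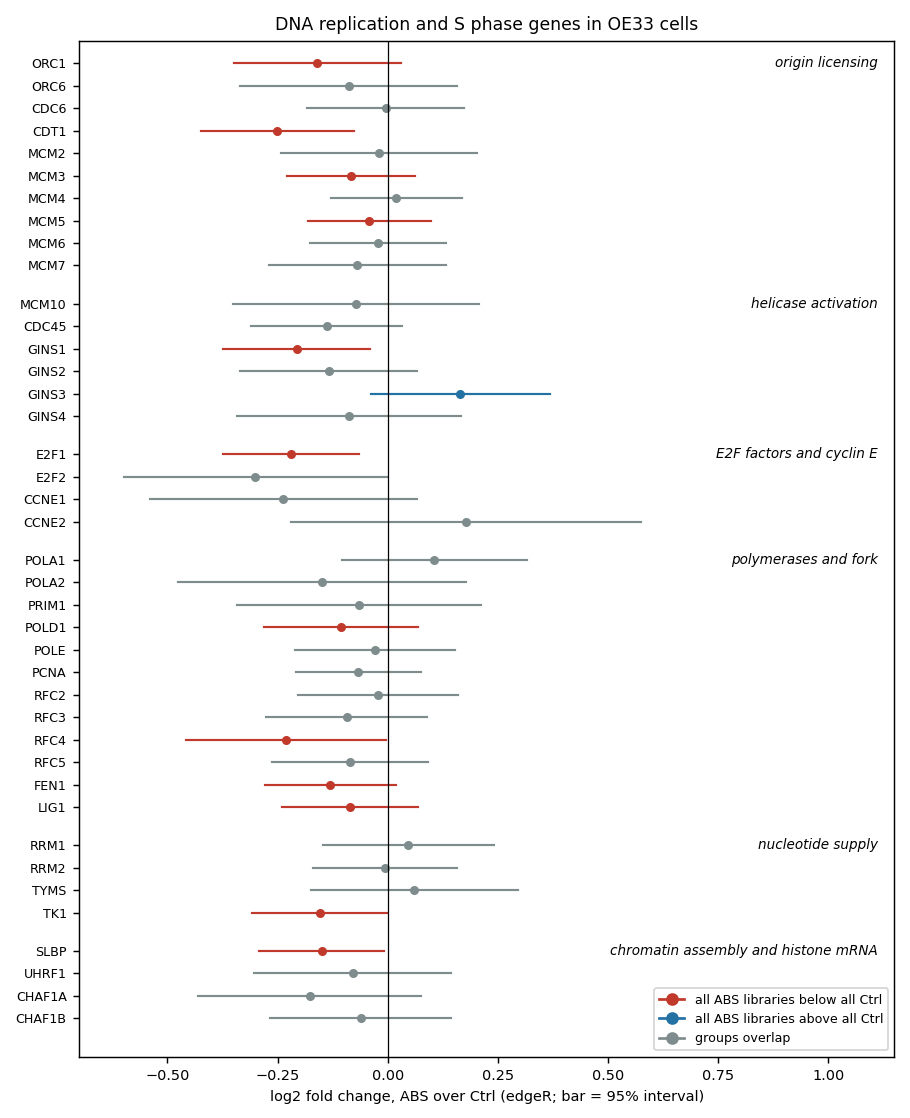
Log2 fold change, ABS over Ctrl, of each of the 40 genes by role (points, with 95% intervals from the edgeR fit over 3 libraries per group). Points sit between −0.30 and 0.18, 34 of them left of 0, and red marks the 12 genes whose 3 ABS values all lay below the 3 Ctrl values.

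**Figure D2:**
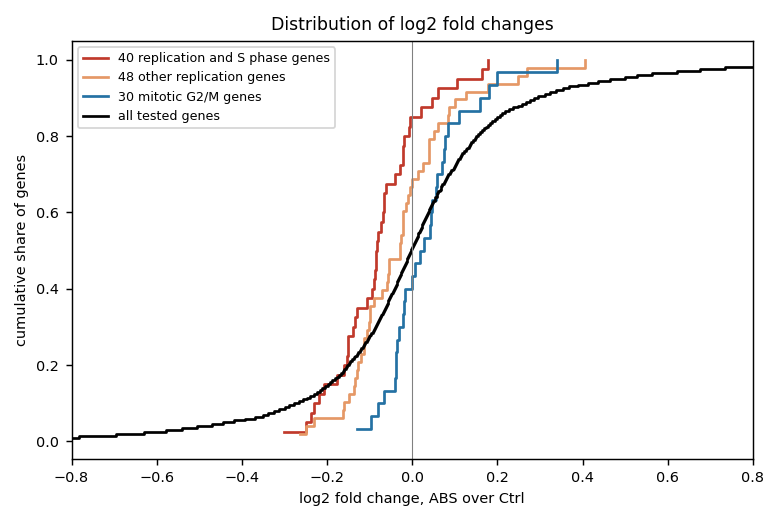
Cumulative share of genes (vertical axis) against log2 fold change, ABS over Ctrl (horizontal axis, shown from −0.8 to 0.8), for the 40 genes, 48 other replication genes, 30 mitotic genes and all 13768 tested genes. The curve of the 40 genes crosses 0 at a share of 85%, that of all tested genes at 51%.

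The same 40 genes were read within the replicates. Taking replicates 1 and 2, the difference in mean log2(CPM + 0.5) was below 0 in 30 of the 40, with a median of −0.108, and in the replicate 3 pair, which has 1 library per group, in 32, with a median of −0.0736. It was below 0 in both for 23 genes and above 0 in both for 1, *GINS3*. In a fit of replicates 1 and 2 alone, 6 of the 40 (15%) were called lower and 0 higher, against 5.33% and 7.83% of all tested genes. The 6 were *CDT1*, *GINS1*, *E2F1*, *E2F2*, *RFC4* and *TK1*. That fit leaves out the libraries that stood apart, which lowers the spread by construction. The log2 fold changes of all 6 were also larger in size there, from −0.20 (*TK1*) to −0.46 (*E2F2*). With all libraries these were −0.15 and −0.30. What made the 6 pass was not tested. With replicate 3 as a term in the fit, 0 of the 40 were called, against 2.24% of all tested genes called higher and 1.14% lower. The smallest edgeR adjusted p there were 0.0541 (*CDT1*) and 0.0732 (*E2F1*), against 0.258 and 0.262 without the term. Leaving out 1 library at a time moved the log2 fold change by over 1.5 times, or turned its sign, in 27 of the 40 genes, and the sign turned in 15. None of the 7 genes at an unadjusted p under 0.05 was among the 27. The limit is relative to the size of the change, and the 7 were picked on these same libraries. Their absence from the 27 is therefore no separate support for them.

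The E2F factors and cyclin E stand at the top of the pathway. *E2F1* (ENSG00000101412, GRCh38 chromosome 20, 33675683 to 33686404), an activator E2F, had 67.04, 64.75 and 67.07 CPM in ABS libraries, against 78.64, 77.05 and 75.82 CPM in Ctrl libraries. The ABS values are close to each other and all lie below the Ctrl values. Its log2 fold change was −0.22 ± 0.07 (SE), edgeR adjusted p = 0.262. Within replicates 1 and 2 the difference was −0.24, and in the replicate 3 pair −0.18. *E2F2* (ENSG00000007968, chromosome 1, 23506430 to 23531220), another activator, had 10.61, 9.618 and 12.13 CPM in ABS libraries, against 14.03, 13.83 and 12.04 CPM in Ctrl libraries. Here the replicate 3 values are nearly equal and the groups overlap through them. The log2 fold change was −0.30 ± 0.14 (adjusted p = 0.507), the lowest value of the 40, and the difference was −0.44 within replicates 1 and 2 and 0.01 in the replicate 3 pair.

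The cyclins E, which activate CDK2 at the start of S phase, had estimates of opposite sign, neither past the test. *CCNE1* had 15.09, 13.95 and 17.66 CPM in ABS libraries and 15.51, 18.7 and 20.85 CPM in Ctrl libraries, a log2 fold change of −0.24 (edgeR adjusted p = 0.632). *CCNE2* had 7.221, 9.705 and 7.81 CPM in ABS libraries and 5.823, 8.009 and 8.025 CPM in Ctrl libraries, a log2 fold change of 0.18 at adjusted p = 0.827. The groups overlap for both. The value of *CCNE1* was −0.14 without Ctrl 3, and that of *CCNE2* was 0.04 without Ctrl 1 and 0.05 without ABS 2. *CCNE2* shares 1629 of its 4397 exonic bases with *INTS8* on the opposite strand, and the strand setting of the counting was not given in the sources used here, so its counts are uncertain.

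E2F factors act through a short word in promoters, and several of these genes carry it. Promoter windows of 300 bases, 250 before and 50 after the start of the gene, were taken from RefSeq (GRCh38.p14) and matched 36 of the 40 genes by symbol. The words searched on both strands were TTTCCCGC, TTTGGCGC, TTTCGCGC and TTTGCCGC. At least 1 was present in 19 of the 36 promoters (52.8%), in 3 of 24 promoters of the mitotic list (12.5%) and in 908 of all 27305 promoters (3.33%). The CCAAT box was present in 55.6%, 79.2% and 35.7% of them. A further word of mitotic promoters, TTTGAA, was present in 1 of the 36, in 14 of the 24 mitotic promoters and in 15.4% of all promoters. Among the 36 genes, the 19 with an E2F word had a median log2 fold change of −0.08, with 16 below 0, and the 17 without one a median of −0.11, also with 16 below 0. The medians of genes with and without the word thus lay close together. Only exact matches were counted. *CDC45* and *MCM10*, counted without a word, hold tttggcgg, which differs from TTTGGCGC in the last letter only. The comparison therefore does not separate genes with an E2F site from genes without one. A match is a description of the letters, not of binding.

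The printed promoters are those of 4 genes with an E2F word and an unadjusted p under 0.05, and of *GINS3*, which has the word but lay higher after ABS. Each runs 5′ to 3′ on the strand of the gene, with the E2F words in capitals. The word begins at position −33 and again at −20 in *E2F1*, at −42 in *E2F2*, at −35 in *CDT1*, at 6 in *GINS1* and at −5 in *GINS3*, counted from 1 at the RefSeq start with no position 0.
E2F1 (chr20:33686336-33686635, - strand): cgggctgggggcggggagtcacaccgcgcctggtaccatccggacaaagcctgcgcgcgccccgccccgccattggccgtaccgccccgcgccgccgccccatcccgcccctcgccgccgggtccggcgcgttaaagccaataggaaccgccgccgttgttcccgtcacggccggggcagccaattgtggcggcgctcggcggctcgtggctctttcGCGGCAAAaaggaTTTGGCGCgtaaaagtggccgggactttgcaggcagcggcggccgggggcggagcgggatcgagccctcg
E2F2 (chr1:23531184-23531483, - strand): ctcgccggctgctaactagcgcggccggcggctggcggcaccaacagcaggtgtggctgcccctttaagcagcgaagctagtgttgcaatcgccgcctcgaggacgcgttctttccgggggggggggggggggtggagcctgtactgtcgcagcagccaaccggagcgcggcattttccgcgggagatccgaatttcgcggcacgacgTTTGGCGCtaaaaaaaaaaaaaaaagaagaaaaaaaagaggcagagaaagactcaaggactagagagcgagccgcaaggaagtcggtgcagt
CDT1 (chr16:88803539-88803838, + strand): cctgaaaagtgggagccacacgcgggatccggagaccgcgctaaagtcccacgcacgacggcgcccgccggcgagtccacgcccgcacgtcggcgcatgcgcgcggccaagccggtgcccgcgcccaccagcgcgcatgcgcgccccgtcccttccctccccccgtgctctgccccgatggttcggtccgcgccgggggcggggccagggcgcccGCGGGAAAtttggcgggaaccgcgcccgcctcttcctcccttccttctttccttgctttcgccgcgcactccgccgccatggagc
GINS1 (chr20:25407423-25407722, + strand): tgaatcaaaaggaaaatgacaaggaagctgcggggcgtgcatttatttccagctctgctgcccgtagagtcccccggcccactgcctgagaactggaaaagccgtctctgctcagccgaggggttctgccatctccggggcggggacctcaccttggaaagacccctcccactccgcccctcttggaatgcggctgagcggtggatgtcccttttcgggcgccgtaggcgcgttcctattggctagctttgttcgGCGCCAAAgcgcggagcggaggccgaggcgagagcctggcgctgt
GINS3 (chr16:58392221-58392520, + strand): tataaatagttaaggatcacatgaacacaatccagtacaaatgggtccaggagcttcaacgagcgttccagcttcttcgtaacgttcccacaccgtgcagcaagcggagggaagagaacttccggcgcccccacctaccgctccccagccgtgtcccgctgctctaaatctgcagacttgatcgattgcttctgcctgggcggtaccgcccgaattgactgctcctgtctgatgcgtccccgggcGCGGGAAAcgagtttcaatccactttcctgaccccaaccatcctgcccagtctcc

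The estimates of all 10 origin licensing genes lay within 20% of the control level. *CDT1* (ENSG00000167513, chromosome 16, 88803213 to 88809258), which loads the MCM helicase together with CDC6, had 89.84, 91.59 and 94.19 CPM in ABS libraries, against 117.7, 111.6 and 98.57 CPM in Ctrl libraries. All ABS values lie below the Ctrl values, with Ctrl 3 the nearest to them. The log2 fold change was −0.25 ± 0.08 (edgeR adjusted p = 0.258, the smallest p among the 40). Without Ctrl 3 it was −0.32 and passed, at an adjusted p of 0.0307, and the difference was −0.34 within replicates 1 and 2 and −0.07 in the replicate 3 pair. *ORC1*, the largest subunit of the origin recognition complex, had 34.37, 36.29 and 34.18 CPM in ABS libraries and 36.98, 40.23 and 39.92 CPM in Ctrl libraries, groups that do not overlap. Its log2 fold change was −0.16 at adjusted p = 0.597.

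*CDC6*, the ATPase that works with CDT1, had 156.9, 157.5 and 165.2 CPM in ABS libraries and 156.3, 146.1 and 178.6 CPM in Ctrl libraries, with the ABS values inside the Ctrl range. Its log2 fold change was −0.0042, with a 95% interval from −0.18 to 0.17. The 6 subunits of the MCM2-7 ring lay near 0, with log2 fold changes between −0.08 (*MCM3*) and 0.02 (*MCM4*). *MCM2* had 217.4, 221.5 and 169.1 CPM in ABS libraries and 219.2, 208.5 and 188.4 CPM in Ctrl libraries, with the lowest value of each group in replicate 3. *MCM2* shares 1113 of its 4902 exonic bases with *AC023593.1* on the opposite strand. *MCM3* had 257.6, 241.5 and 257.9 CPM in ABS libraries and 265.4, 260.3 and 276 CPM in Ctrl libraries. *MCM5* had 220.6, 220.8 and 216.4 CPM in ABS libraries and 223.8, 224.5 and 228.7 CPM in Ctrl libraries. In *MCM3* and *MCM5* the groups do not overlap, though the means differed by under 20% (log2 fold changes of −0.08 and −0.04). *ORC6*, *MCM6* and *MCM7* had log2 fold changes of −0.09, −0.02 and −0.07, with overlapping groups.

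Among the genes that turn the loaded ring into a moving helicase, members of the GINS complex had estimates of either sign. *GINS1* (ENSG00000101003, chromosome 20, 25407727 to 25452628) had 69.63, 65.97 and 72.06 CPM in ABS libraries, against 84.67, 76.95 and 78.05 CPM in Ctrl libraries. The groups do not overlap, and the log2 fold change was −0.21 ± 0.08 (edgeR adjusted p = 0.353). Within replicates 1 and 2 the difference was −0.25, and in the replicate 3 pair −0.11. *GINS3* had 31.34, 32.92 and 31.4 CPM in ABS libraries, against 29.92, 26.39 and 29 CPM in Ctrl libraries. It was the only one of the 40 with all ABS values above all Ctrl values, with a log2 fold change of 0.16 ± 0.09 at adjusted p = 0.623. *GINS2* and *GINS4* had log2 fold changes of −0.13 and −0.09 with overlapping groups. On the opposite strand, *GINS3* shares 558 of its 5105 exonic bases with *AC009118.2*, and *GINS4* 1159 of its 5475 with *AC009630.2*. GINS subunits form a complex in equal numbers, but the difference between *GINS1* and *GINS3* was not tested. *CDC45*, the other helicase cofactor, had a log2 fold change of −0.14 and *MCM10*, which helps to activate the helicase, one of −0.07.

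**Figure D3:**
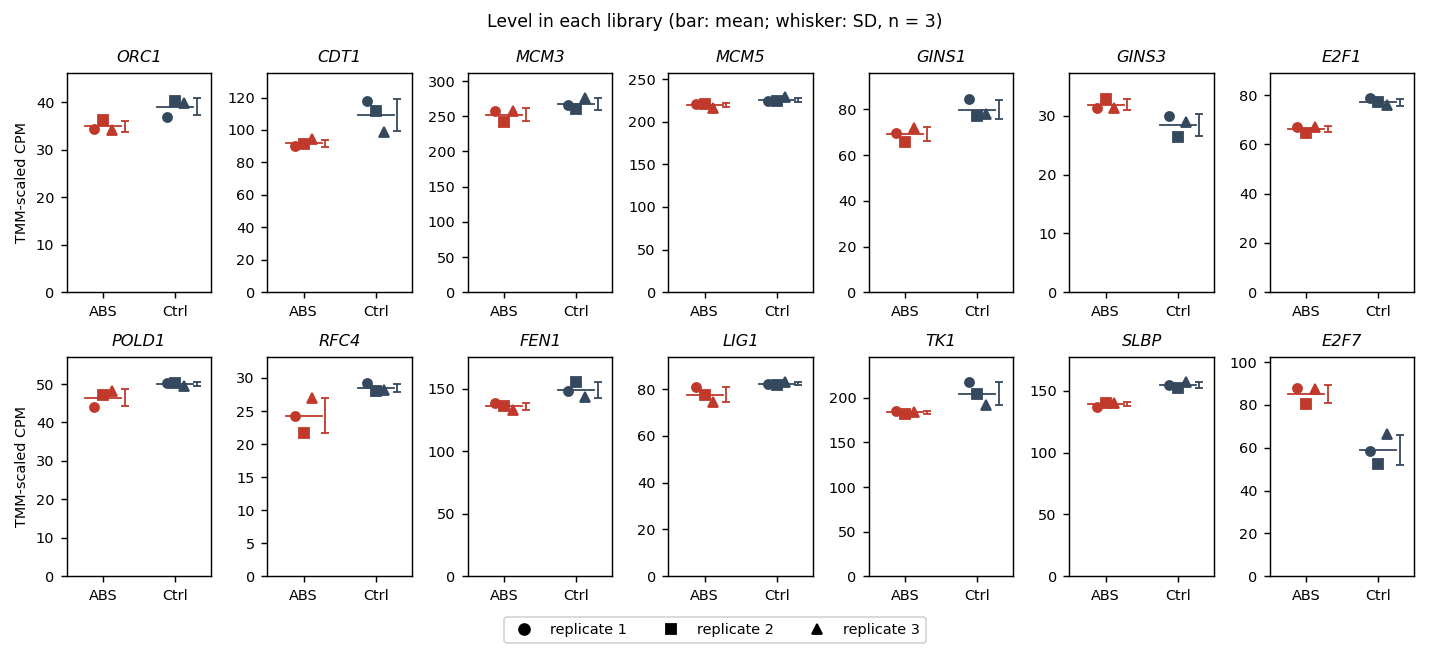
TMM-scaled CPM in each library for the 13 genes of the list whose groups do not overlap and for *E2F7*, with ABS left of Ctrl, symbols for the replicate number, a bar at the mean and a whisker for the SD (n = 3). *E2F7* shows the widest gap, 80.31 to 88.02 CPM in ABS libraries against 52.38 to 66.47 CPM in Ctrl libraries.

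At the fork, 11 of 12 genes had a negative log2 fold change and 4 had all ABS values below all Ctrl values, against 51% and 6.95% of all tested genes. *RFC4*, a subunit of the clamp loader, had 24.24, 21.68 and 26.92 CPM in ABS libraries, against 29.2, 28.08 and 28.21 CPM in Ctrl libraries. The Ctrl values are tight and the ABS values spread below them. The log2 fold change was −0.23 ± 0.10 (edgeR adjusted p = 0.505). Within replicates 1 and 2 the difference was −0.31, and in the replicate 3 pair −0.07. The other clamp loader genes, *RFC2*, *RFC3* and *RFC5*, had log2 fold changes of −0.02, −0.09 and −0.09.

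*FEN1*, the nuclease that trims Okazaki fragments, had 139, 136.1 and 133.2 CPM in ABS libraries, against 148.3, 155.4 and 143.1 CPM in Ctrl libraries. *LIG1*, which seals these fragments, had 80.8, 77.29 and 74.61 CPM in ABS libraries and 82, 81.82 and 83.1 CPM in Ctrl libraries. *POLD1*, the catalytic subunit of polymerase delta, had 44.01, 47.13 and 48.19 CPM in ABS libraries and 50.33, 50.29 and 49.39 CPM in Ctrl libraries. These genes of lagging strand synthesis all lay below control in every library, by log2 fold changes of −0.13, −0.09 and −0.11, with edgeR adjusted p of 0.585, 0.77 and 0.741. *PCNA*, the sliding clamp, had 490, 501 and 511.1 CPM in ABS libraries, against 537.2, 532.5 and 503.3 CPM in Ctrl libraries. Its groups overlap through replicate 3, and the log2 fold change was −0.07, with a 95% interval from −0.21 to 0.07. The subunits of polymerase alpha had estimates of opposite sign, *POLA1* with a log2 fold change of 0.11 and *POLA2* with one of −0.15 (adjusted p of 0.792 and 0.822). For *POLA1* the difference was 0.22 within replicates 1 and 2 and −0.13 in the replicate 3 pair. For *POLA2* these were −0.27 and 0.07. *POLA2* shares 2012 of its 5726 exonic bases with *AP000944.2* on the same strand, so its counts are uncertain. *PRIM1*, the catalytic primase subunit, and *POLE*, the catalytic subunit of polymerase epsilon, had log2 fold changes of −0.07 and −0.03. Of the exonic bases of *FEN1* in the annotation, 166 are shared with *TMEM258* on the opposite strand and 49 with *FADS2*. *POLD1* shares 426 of its 4932 exonic bases with *AC020909.1* on the same strand.

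Of 4 genes of nucleotide supply, 2 had negative log2 fold changes. *TK1*, which salvages thymidine, had 185, 182.2 and 184.1 CPM in ABS libraries, against 217.2, 204.8 and 191.5 CPM in Ctrl libraries. The ABS values are nearly equal and lie below all Ctrl values, and the log2 fold change was −0.15 ± 0.07 (edgeR adjusted p = 0.51). Within replicates 1 and 2 the difference was −0.20, and in the replicate 3 pair −0.06. *TYMS*, which makes thymidylate anew, had 39.25, 34.14 and 30.73 CPM in ABS libraries and 34.73, 34.31 and 30.82 CPM in Ctrl libraries, overlapping groups with a log2 fold change of 0.06. *TYMS* shares 967 of its 2470 exonic bases with *ENOSF1* on the opposite strand, so its counts are uncertain. *RRM2*, the regulatory subunit of ribonucleotide reductase, had 161.1, 167.7 and 144 CPM in ABS libraries and 161.7, 155.2 and 157.9 CPM in Ctrl libraries, with a log2 fold change of −0.0066 and a 95% interval from −0.17 to 0.16. *RRM2* shares 1077 of its 5323 exonic bases with *AC007240.1* on the same strand. *RRM1*, the large subunit, had a log2 fold change of 0.05.

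All 4 genes of chromatin assembly and histone mRNA handling had negative log2 fold changes. *SLBP*, which binds the stem-loop of replication-dependent histone mRNA, had 137.2, 140.4 and 140.1 CPM in ABS libraries, against 154.4, 152 and 157.1 CPM in Ctrl libraries. Both groups are tight and do not overlap, and the difference was alike within replicates 1 and 2 (−0.14) and in the replicate 3 pair (−0.16). Its log2 fold change was −0.15 ± 0.07 (edgeR adjusted p = 0.478). *UHRF1*, which brings the maintenance DNA methyltransferase to new DNA, had 115.8, 104.4 and 127.9 CPM in ABS libraries and 112.3, 114.2 and 141.4 CPM in Ctrl libraries, with a log2 fold change of −0.08. *CHAF1A* and *CHAF1B*, subunits of the histone chaperone CAF-1, had log2 fold changes of −0.18 and −0.06 with overlapping groups. For *CHAF1A* it was −0.08 without Ctrl 3, −0.09 without ABS 2 and −0.28 without ABS 3. *CHAF1B* shares 89 of its 5118 exonic bases with *MORC3*.

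Levels can be compared between genes once scaled by gene length, as TPM, transcript levels on a common total computed from the counts and the deposited lengths. *PCNA* stood highest, at 1268 ± 55.7 TPM in ABS cells and 1312 ± 17.8 TPM in Ctrl cells (SD, n = 3 each), followed by *MCM7* at 1077 ± 99.2 TPM in ABS cells and 1117 ± 46.8 TPM in Ctrl cells. The other MCM2-7 subunits were much less abundant, from *MCM3* at 257.6 TPM in ABS cells and 270 TPM in Ctrl cells down to *MCM5* at 111.3 TPM in ABS cells and 113.4 TPM in Ctrl cells. *MCM7* exceeded *MCM5* 9.68-fold in ABS cells and 9.85-fold in Ctrl cells, although the ring holds 1 copy of each subunit. The deposited lengths, 4386 bases for *MCM7* and 7338 for *MCM5*, equal the union of all annotated exons in each of the 40 genes, which lowers TPM where long isoforms are annotated but not used. Without scaling by length, CPM of *MCM7* exceeded that of *MCM5* 5.8-fold in ABS cells and 5.91-fold in Ctrl cells. At the low end were *E2F2* at 7.37 TPM in ABS cells and 8.96 TPM in Ctrl cells, *POLA2* at 6.21 TPM in ABS cells and 6.81 TPM in Ctrl cells, and *CCNE2* at 6.98 TPM in ABS cells and 6.12 TPM in Ctrl cells. The median over the 40 genes was 73.8 TPM in ABS cells and 80.3 TPM in Ctrl cells. In the order of Ctrl levels, the ranges of mean ± 1 SD overlapped in 27 of 39 neighbouring pairs.

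**Figure D4:**
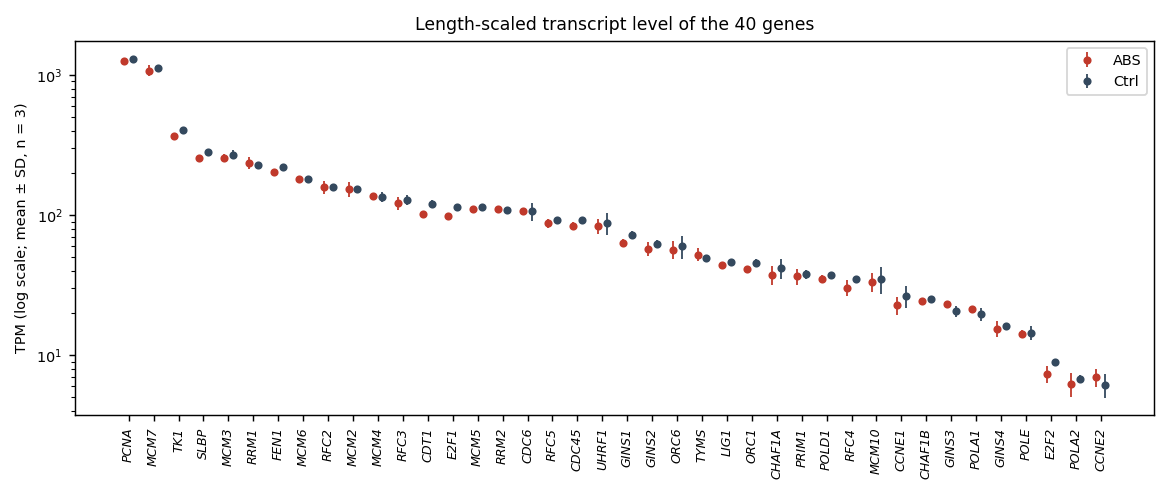
TPM (log scale, mean ± SD, n = 3 per group) of the 40 genes, ordered by their level in Ctrl cells, with ABS left of Ctrl for each gene. *PCNA* and *MCM7* stand highest, at 1312 and 1117 TPM in Ctrl cells, and *E2F2*, *POLA2* and *CCNE2* lowest, at 8.96, 6.81 and 6.12 TPM.

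In the main edgeR fit, of all libraries with group as the only term, 1 gene of the replication and cell cycle lists was called. It belonged to the RB-E2F regulators, outside the 40 genes. *E2F7* (ENSG00000165891, chromosome 12, 77021247 to 77065580) encodes an atypical E2F that represses E2F target genes. It had 88.02, 80.31 and 87.28 CPM in ABS libraries, against 58.4, 52.38 and 66.47 CPM in Ctrl libraries, so that every ABS value lay above every Ctrl value. It rose 1.44-fold, a log2 fold change of 0.53 ± 0.09 (edgeR adjusted p = 0.034), and the difference was 0.60 within replicates 1 and 2 and 0.39 in the replicate 3 pair. The call ended with library size as the only scaling (adjusted p = 0.0857) and without ABS 1 (0.243), ABS 2 (0.105), Ctrl 1 (0.201) or Ctrl 2 (0.242), and over all alternatives the adjusted p ran from 1.05e-06 to 0.243. Its promoter in RefSeq held none of the E2F words within the window, which says only that these letters are not there. *E2F8*, the other atypical E2F, named after its value was seen, had 30.7, 32.83 and 31.08 CPM in ABS libraries and 36.09, 32.81 and 35.12 CPM in Ctrl libraries, with a log2 fold change of −0.14 at adjusted p = 0.683.

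In the main edgeR fit, 1 of 32 tested regulators of the RB-E2F pathway and of the G1/S step was called higher and 0 lower. The shares of all tested genes were 0.37% and 0.0654%. The median log2 fold change of the 32 regulators was −0.0046. In the fit of replicates 1 and 2 alone, 7 were called higher and 5 lower, against 7.83% and 5.33% of all tested genes. *CDKN2B*, an inhibitor of CDK4 and CDK6, had 38.56, 43.02 and 35.24 CPM in ABS libraries, against 60.02, 60.89 and 45.54 CPM in Ctrl libraries, groups that do not overlap, with a log2 fold change of −0.51 ± 0.12 (edgeR adjusted p = 0.101). It passed with DESeq2 (adjusted p = 0.00758), in which 1 regulator was called higher and 1 lower, against 1.45% and 0.63% of all genes DESeq2 tested. It also passed in edgeR with replicate 3 as a term (adjusted p = 0.00219), and over the alternatives the adjusted p ran from 1.99e-05 to 0.486. For *CDKN2B* the difference was −0.56 within replicates 1 and 2 and −0.37 in the replicate 3 pair. *CDKN1A*, the p21 inhibitor of CDK2, had 91.21, 92.42 and 83.48 CPM in ABS libraries and 62.78, 66.85 and 90.17 CPM in Ctrl libraries. Only Ctrl 3 reaches the ABS values, and the log2 fold change was 0.28 at adjusted p = 0.457, against 0.46 and 0.00833 without Ctrl 3. For *CDKN1A* the difference was 0.50 within replicates 1 and 2 and of opposite sign, −0.11, in the replicate 3 pair. *SKP2*, a ubiquitin ligase subunit that removes the CDK inhibitor p27, stood at −0.27 on the log2 scale (adjusted p = 0.686). It was −0.51 within replicates 1 and 2 and 0.14 in the replicate 3 pair. *RB1*, *CCND1* and *MYC* had log2 fold changes of 0.0013, 0.01 and 0.06.

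Of 48 other replication genes, 0 were called in either direction in the main edgeR fit or by DESeq2. At an unadjusted p under 0.05, 2 were higher and 1 lower, against 5.61% and 4.14% of all tested genes. The median log2 fold change of the 48 was −0.03, and 32 of 48 (66.7%) were below 0, against 51% of all tested genes. In the fit of replicates 1 and 2 alone, 1 was called higher and 2 lower, against 7.83% and 5.33% of all tested genes. *TIPIN*, part of the fork protection complex, had 23.48, 23.74 and 23.16 CPM in ABS libraries and 26.69, 28.08 and 28.83 CPM in Ctrl libraries, a log2 fold change of −0.25 at adjusted p = 0.362. *MCM9*, which acts in recombination repair, and *ASF1A*, a histone chaperone, had log2 fold changes of 0.41 and 0.25 (adjusted p of 0.355 and 0.457) with all ABS values above all Ctrl values. For *MCM9* the difference was 0.54 within replicates 1 and 2 and 0.07 in the replicate 3 pair. For *ASF1A* these were 0.26 and 0.19. *ASF1A* lies within *MCM9* on the opposite strand and shares 137 of its 2517 exonic bases with it, so some reads may not be told apart. *DBF4B*, an activator of the CDC7 kinase, stood at −0.26 on the log2 scale (adjusted p = 0.586).

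The 30 mitotic G2/M genes, which peak after S phase, had a median log2 fold change of 0.02. Of them, 13 (43.3%) were below 0, against 51% of all tested genes, and 0 were called in the main edgeR fit. At an unadjusted p under 0.05, 1 was higher and 0 lower, against 5.61% and 4.14% of all tested genes. In the fit of replicates 1 and 2 alone, 2 were called higher and 1 lower, against 7.83% and 5.33% of all tested genes. *KIF23*, a kinesin of cytokinesis, had 135.1, 130.4 and 121.3 CPM in ABS libraries, against 101.4, 93.34 and 110.5 CPM in Ctrl libraries, a log2 fold change of 0.34 ± 0.08 (edgeR adjusted p = 0.106). It passed with DESeq2 (adjusted p = 0.0193) as 1 of 30, against 1.45% of all genes called higher there. It also passed in edgeR with replicate 3 as a term (adjusted p = 0.0115), and over the alternatives the adjusted p ran from 2.28e-06 to 0.539. For *KIF23* the difference was 0.45 within replicates 1 and 2 and 0.13 in the replicate 3 pair. *ASPM*, *CENPE* and *TTK*, genes of the spindle and its checkpoint, had log2 fold changes of 0.20, 0.18 and 0.16 with overlapping groups. In the median over the 40 genes of log2(CPM + 0.5) relative to the Ctrl mean, the ABS libraries lay at −0.0977, −0.0805 and −0.0565 and the Ctrl libraries at 0.0229, −0.0048 and −0.0086, without overlap. For the mitotic genes the ABS libraries lay at 0.0252, 0.056 and −0.0303 and the Ctrl libraries at 9.74e-05, 0.0381 and −0.0542, with overlap. The difference between the lists was not tested.

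**Figure D5:**
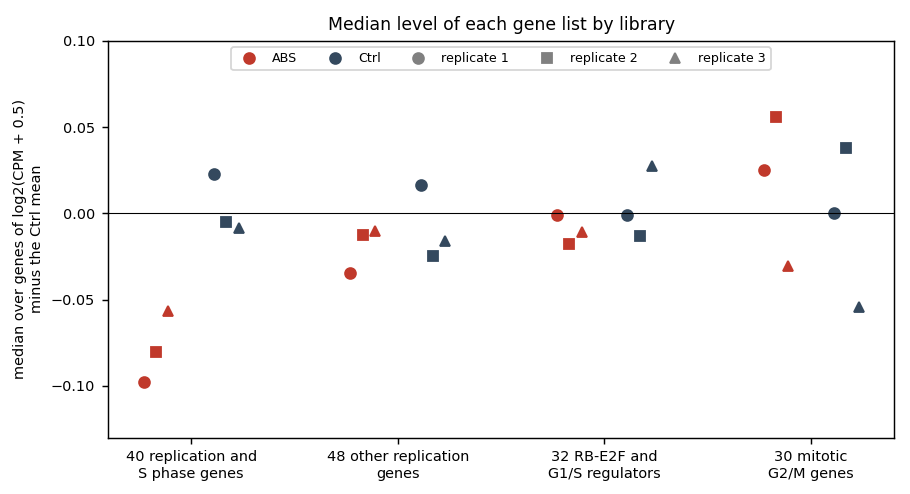
Median over the genes of each list of log2(CPM + 0.5) minus the Ctrl mean of each gene (vertical axis), by library, with ABS left of Ctrl in each list and symbols for the replicate number. The ABS libraries lie below the Ctrl libraries for the 40 genes, between −0.0977 and −0.0565, and overlap them for the 3 other lists.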

How the data were processed

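Polyadenylated RNA of OE33 cells was sequenced from 3 ABS and 3 Ctrl libraries. The authors deposited raw counts per gene, whole numbers, in 1 table. Per the submitters' processing notes, HISAT2 2.0.5, featureCounts 1.5.0-p3 and GRCh38 were used; the annotation release, strand setting and treatment of multiply mapped reads are not given in the sources used here. All 58735 gene identifiers occur in GENCODE 29, 58724 of them with the same coordinates.

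Genes were kept by filterByExpr (minimum count 10, minimum total 15), scaled by TMM and tested with edgeR 4.0.16 in R 4.3.3 (quasi-likelihood F-test, group as the only term), with Benjamini-Hochberg adjustment over all 13768 genes and a threshold of 0.05. The SE is the log2 fold change divided by the square root of F. CPM values are TMM-scaled. The deposited gene lengths were used for TPM. Procedures were tested on simulated data, drawn without the offset of the replicate 3 libraries. There edgeR recovered 69.4% of 1.5-fold changes, 80% of 2-fold and 96.8% of 4-fold ones. Changes smaller than 1.5-fold were not simulated. DESeq2 1.42.0, other scalings, no filter, a replicate block, a term for replicate 3 and left-out libraries were alternatives. The 40 genes, the other lists and the alternatives were chosen with earlier results of these data known. Values were given for genes whose groups do not overlap, the 2 largest changes per role group and a fixed set, and, in the other lists, called genes and the largest changes with a mean of at least 5 CPM up to 4. Intervals and detection limits cover counting error or the spread between these libraries only.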

Additional observations from a re-analysis of the deposited data

How the results depend on the processing

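Scaling, filter, tool, the replicate block and left-out libraries were varied 1 at a time, and for the genes outside the list these values were added after seeing the data. All called genes numbered 60, and 35 when scaled by library size only, 409 with all genes kept, 264 in DESeq2, 350 with the replicate block, 465 with replicate 3 as a term and 1813 in replicates 1 and 2 only. Leaving out 1 library gave between 12 and 438 (17 without Ctrl 1, 12 without Ctrl 2, 438 without Ctrl 3, 13 without ABS 1, 18 without ABS 2, 273 without ABS 3). Of the 40 genes, 0 were called higher under any of these, and 0 lower except 6 in replicates 1 and 2 only and 1, *CDT1*, without Ctrl 3, a range of 0 to 1 without 1 library. The median log2 fold change of the 40 ran from −0.106 to −0.0659. Signs turned in 14 of 312 values of the 24 members given in detail, to values between −0.0373 and 0.098. With all genes kept *CDC6* was at 0.000548 and with the replicate block at 5.61e-05, and in replicates 1 and 2 only *CDC6*, *MCM2* and *RRM2* were at 0.0557, 0.0372 and 0.0527. Without 1 library the log2 fold change ran from −0.0664 to 0.0789 for *CDC6*, −0.0879 to 0.098 for *MCM2*, −0.0534 to 0.0569 for *RRM2*, −0.0373 to 0.144 for *TYMS* and −0.153 to 0.0338 for *UHRF1*. Outside the list signs turned when scaled by library size only for *RB1* (−0.0100) and *CCND1* (−7.76e-05), and without 1 library values ran from −0.0256 to 0.0174 for *RB1*, −0.052 to 0.14 for *CCND1* and −0.12 to 0.552 for *CENPE*. The cause was not tested. The replicate numbers were not taken as a pairing: deviations from the group mean correlated at 0.0714, 0.0625 and 0.227 between same-numbered libraries over all tested genes (0.141, 0.11 and 0.357 at a mean of at least 5 CPM), and ABS 2 correlated best with Ctrl 1. With the replicate block *CDKN2B* (adjusted p = 0.00369) and *KIF23* (0.0233) passed in edgeR, and *E2F7* passed as it did without the block. The median SE of the 40 genes, 0.0854 on the log2 scale, was close in size to their median log2 fold change of −0.084. This SE belongs to the change of a single gene and does not measure the uncertainty of the median over the list.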
